A study of Mus musculus with 16 samples.

Results

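The 9 genes described here encode junction proteins of the intercalated disc, the contact through which heart muscle cells are joined end to end. They were taken by symbol from the gene count table: Gja1 for the gap junction, Dsp, Pkp2, Jup, Dsg2 and Dsc2 for the desmosome, Cdh2 and Ctnna3 for the adherens junction, and Tjp1 for the scaffold beside the gap junction. They are 9 of the 55573 genes in the table, and all 9 were among the 19955 genes that passed the filter on low counts. The RNA came from ventricular tissue of 16 male mice that form 4 groups of 4. Every mouse carried Trbp fl/fl alleles and the αMHC-MerCreMer transgene, whose promoter acts in cardiomyocytes, and injections began at the age of 4 weeks. Trbp-cKO mice received tamoxifen at 30 mg/kg once a day for 5 days, control mice received corn oil, and each kind of mouse then underwent either sham surgery or transverse aortic constriction (TAC), which narrows the aorta and loads the left ventricle with pressure. Hearts were taken about 8 weeks after surgery. Since only Trbp-cKO mice received tamoxifen, the deletion and the drug cannot be told apart in these hearts.

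Cardiomyocytes are coupled electrically by gap junctions and mechanically by desmosomes and adherens junctions, which in the heart mix into a composite junction. Desmosomes anchor desmin intermediate filaments: the cadherins desmoglein and desmocollin span the gap between cells, and plakophilin, plakoglobin and desmoplakin link them to the filaments. Adherens junctions anchor actin through N-cadherin and the catenins. Inherited defects of the desmosomal proteins are known to cause arrhythmogenic cardiomyopathy, and connexin 43 is known to be reduced or displaced from the disc in many failing hearts.

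Promoter windows from 250 bases before to 50 bases after the start of a transcript were taken from the RefSeq table (build GRCm38.p6) for 5 of the 9 genes. Windows of the other genes are not reported here. They were searched on both strands for the MEF2 core (CTA and TAG with any 4 bases between them), the TEAD motif GGAATG, the GATA motif AGATAA, the AP-1 motif TGANTCA and the E-box CACGTG, which are held by 3.69%, 14.7%, 11.2%, 7.81% and 7.15% of the 32851 promoter windows in the table. No searched motif overlapped another in these windows. The window of Gja1, whose level after TAC is described first among the results, lies at chr10:56377050-56377349 on the plus strand. The window of Dsp, the most abundant of the 9 genes per kb of annotated exons in control sham hearts, lies at chr13:38151044-38151343 on the plus strand. Capitals mark the motif matches.
Gja1: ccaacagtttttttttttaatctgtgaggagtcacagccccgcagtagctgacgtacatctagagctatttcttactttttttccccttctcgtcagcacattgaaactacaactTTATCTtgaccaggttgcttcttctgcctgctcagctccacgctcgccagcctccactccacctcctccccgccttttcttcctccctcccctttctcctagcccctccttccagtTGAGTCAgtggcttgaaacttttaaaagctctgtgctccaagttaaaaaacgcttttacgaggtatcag
Dsp: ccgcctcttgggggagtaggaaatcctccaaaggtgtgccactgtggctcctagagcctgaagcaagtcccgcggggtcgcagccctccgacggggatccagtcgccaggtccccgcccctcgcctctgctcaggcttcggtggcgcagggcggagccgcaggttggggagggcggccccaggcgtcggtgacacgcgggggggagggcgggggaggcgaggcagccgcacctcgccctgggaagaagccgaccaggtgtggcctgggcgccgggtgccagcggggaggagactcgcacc
The Gja1 window held TTATCT, the GATA letters on the minus strand, starting at position -135 from the transcript start, and the AP-1 letters TGAGTCA at position -19. The Dsp window held none of the searched letters, and its GC content was 73%, against 47.7% in the Gja1 window. The windows of Jup and Tjp1 and 2 of the 3 windows of Ctnna3 held no match either, and the remaining window of Ctnna3 held GGAATG at position -109. These matches describe the letters of the windows only.

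Total counts ranged from 45166994 to 68274222 per heart. Tarbp2, the gene that encodes Trbp, lay between 21.1 and 33.3 CPM (counts scaled to a common adjusted library size) in the 8 control hearts and between 7.14 and 11.4 CPM in the 8 Trbp-cKO hearts, with no overlap. The labelled tissue was checked with 10 cardiomyocyte markers, all of them detected: their summed level was 25800 to 28100 CPM in control sham hearts, 24190 to 29010 in Trbp-cKO sham hearts and 22650 to 31830 in Trbp-cKO TAC hearts. Control TAC 1 and 2 stood apart, with 13770 and 11260 CPM, while control TAC 3 and 4 had 27610 and 28810. In the same hearts, mitochondrial transcripts made up 38.2% and 38.8% of counts, against 18.2% to 26.3% in the other 14. The summed level of 7 endothelial markers, all detected in every group, was highest in control TAC 1 and 2 (1596 and 1798 CPM), followed by Trbp-cKO sham 3 (1320) and Trbp-cKO TAC 4 (1312), and was at most 981.5 CPM in the other 12 hearts. The 4 activated fibroblast markers, all detected, summed to 81.7 to 91.6 CPM in control sham, 209.5 to 639.4 in control TAC, 121.1 to 143.8 in Trbp-cKO sham and 671.2 to 1897 CPM in Trbp-cKO TAC hearts, so they moved with surgery and genotype, and their part in the results was not tested. In bulk ventricle, fewer cells of a type and less RNA per cell cannot be told apart.

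Lengths here are the joined exons of all annotated transcripts of a gene, 10.26 kb for Gja1 and 9.66 kb for Dsp. They are not the lengths of the transcripts expressed in these hearts, and the order of the genes rests on this choice. Per kb of these exons, Dsp was the most abundant of the 9 genes in control sham hearts, at 100.8 ± 13.6 CPM per kb (SD, n = 4 in this and all other groups). Gja1 and Jup followed at 35.8 ± 4.88 and 35.1 ± 2.61 CPM per kb, which did not differ beyond their spread. Pkp2 stood at 28.0 ± 1.29 and Cdh2 at 25.2 ± 3.32 CPM per kb, again within their spread of each other. Tjp1 had 11.2 ± 0.52 CPM per kb. The desmosomal cadherins Dsg2 and Dsc2, which span the gap between neighbouring cells, were far lower than the desmosomal plaque genes, at 6.85 ± 0.85 and 6.68 ± 1.41 CPM per kb, and did not differ beyond their spread. Ctnna3 was lowest, at 1.92 ± 0.22 CPM per kb.

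**Figure D1:**
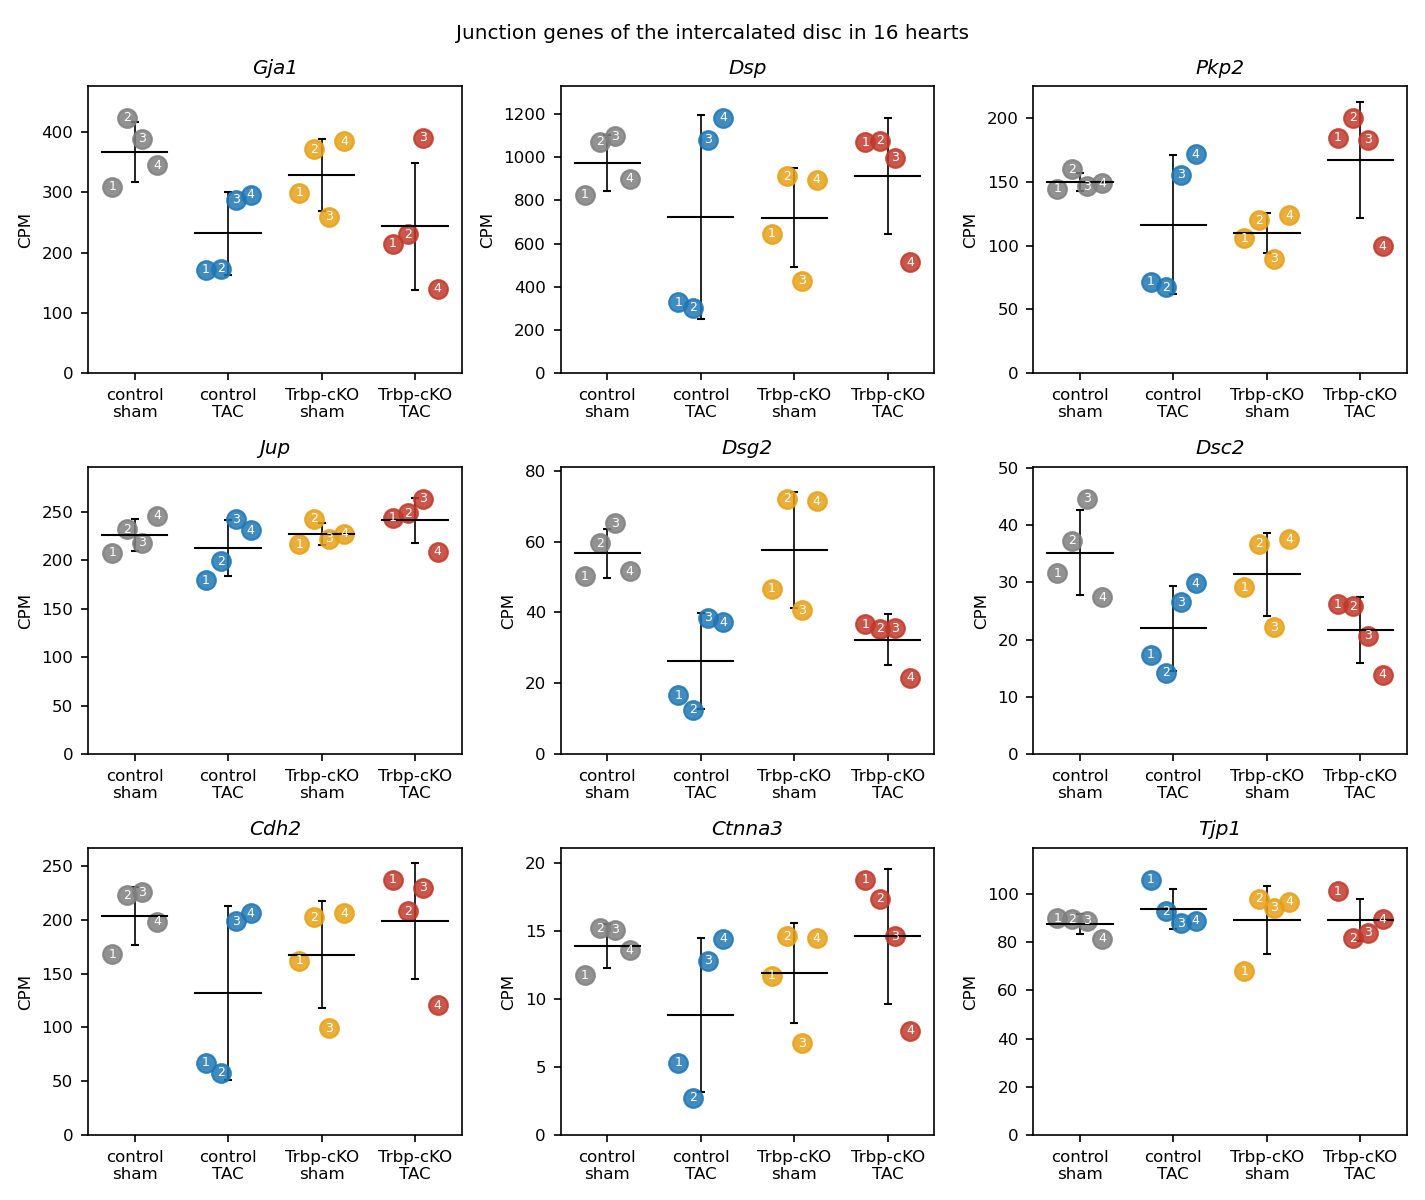
CPM of the 9 junction genes (vertical axis, linear from 0) in each heart of the 4 groups (horizontal axis); the digit in a point is the number of the heart, the horizontal line is the group mean and the bar its SD. For 8 of the 9 genes, control TAC 1 and 2 are the lowest hearts of their group, and Trbp-cKO TAC 4 is the lowest of its own group for 8. The share of all tested genes with this pattern was not counted.

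Gja1 (ENSMUSG00000050953, chr10:56377330-56402513, plus strand) encodes connexin 43, the main gap junction protein of ventricular muscle. In control sham hearts 1 to 4 it was measured at 309.4, 423.8, 389.0 and 344.9 CPM. In control TAC hearts it was measured at 171.2, 173.5, 287.9 and 296.4 CPM, so that every control TAC heart lay below every control sham heart. Trbp-cKO sham hearts had 299.8, 371.4, 259.3 and 384.9 CPM and Trbp-cKO TAC hearts 214.4, 230.9, 390.9 and 139.9 CPM. Those groups overlapped only through Trbp-cKO TAC 3, which had the highest level of the 8 Trbp-cKO hearts. Trbp-cKO TAC 4 had the lowest.

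Dsp (ENSMUSG00000054889, chr13:38151294-38198577, plus strand) encodes desmoplakin, the plaque protein that binds desmin filaments. It was measured at 826.6, 1072, 1096 and 899.1 CPM in control sham hearts and at 328.3, 303.4, 1080 and 1182 CPM in control TAC hearts. The control TAC hearts thus fell into a low pair and a pair within or just above the range of control sham. Trbp-cKO sham hearts had 646.1, 911.5, 427.5 and 894.6 CPM, and Trbp-cKO TAC hearts had 1070, 1076, 997.0 and 512.7 CPM, with 1 low heart in the latter. An antisense gene, Gm10129, overlaps exons of Dsp, and the sources used here do not say whether the counting used strand.

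Pkp2 (ENSMUSG00000041957, chr16:16213318-16272712, plus strand) encodes plakophilin 2, the plaque protein most often affected in arrhythmogenic cardiomyopathy. Control sham hearts were close to each other at 144.5, 159.9, 146.5 and 148.8 CPM, and control TAC hearts had 71.7, 67.3, 155.5 and 171.6 CPM. Trbp-cKO sham hearts had 105.9, 119.9, 89.7 and 124.0 CPM, all of them below the lowest control sham heart. Trbp-cKO TAC hearts had 184.8, 200.3, 183.2 and 99.6 CPM, of which 3 lay above every Trbp-cKO sham heart and 1 within their range.

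Jup (ENSMUSG00000001552, chr11:100368958-100397763, minus strand) encodes plakoglobin, which is found in desmosomes and adherens junctions alike. It varied little: the lowest and highest hearts of a group were 207.5 and 246.0 CPM for control sham, 179.4 and 242.2 for control TAC, 216.4 and 242.8 for Trbp-cKO sham, and 208.7 and 263.2 for Trbp-cKO TAC. All groups overlapped.

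The desmosomal cadherins hold neighbouring cells together. Dsg2 (ENSMUSG00000044393, chr18:20558074-20604521, plus strand), which encodes desmoglein 2, was measured at 50.2, 59.6, 65.2 and 51.7 CPM in control sham hearts and at 16.6, 12.5, 38.5 and 37.2 CPM in control TAC hearts. In Trbp-cKO sham hearts it was measured at 46.6, 72.1, 40.6 and 71.5 CPM, and in Trbp-cKO TAC hearts at 36.7, 35.3, 35.6 and 21.6 CPM. In each kind of mouse all 4 TAC hearts lay below all 4 sham hearts, including control TAC 3 and 4, in which Dsp and Pkp2 were not low. An antisense gene, Gm16090, overlaps exons of Dsg2. Dsc2 (ENSMUSG00000024331, chr18:20030633-20059554, minus strand), which encodes desmocollin 2, had 31.6, 37.3, 44.6 and 27.5 CPM in control sham hearts and 17.3, 14.2, 26.6 and 29.9 CPM in control TAC hearts, which overlapped through control TAC 4. It had 29.2, 36.7, 22.2 and 37.6 CPM in Trbp-cKO sham hearts and 26.2, 25.8, 20.7 and 13.8 CPM in Trbp-cKO TAC hearts, which overlapped through Trbp-cKO sham 3.

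Of the adherens junction genes, Cdh2 (ENSMUSG00000024304, chr18:16588877-16809246, minus strand) encodes N-cadherin. It was measured at 168.0, 222.9, 225.5 and 197.9 CPM in control sham hearts and at 67.0, 58.0, 198.6 and 205.8 CPM in control TAC hearts. Trbp-cKO sham hearts had 162.1, 202.5, 99.0 and 205.9 CPM and Trbp-cKO TAC hearts 237.0, 207.8, 229.8 and 120.5 CPM. As with Dsp, the low hearts of these groups were control TAC 1 and 2, Trbp-cKO sham 3 and Trbp-cKO TAC 4. Ctnna3 (ENSMUSG00000060843, chr10:63430098-65003667, plus strand) encodes αT-catenin, which links the cadherins to actin in the composite junction. The control sham hearts ran from 11.7 to 15.2 CPM, the control TAC hearts from 2.75 to 14.4, the Trbp-cKO sham hearts from 6.75 to 14.6 and the Trbp-cKO TAC hearts from 7.66 to 18.8, with the same low hearts as Cdh2.

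Tjp1 (ENSMUSG00000030516, chr7:65296165-65527781, minus strand) encodes ZO-1, the scaffold that binds connexin 43, and is made in many cell types besides cardiomyocytes. Control sham hearts ranged from 81.3 to 89.9 CPM, control TAC hearts from 87.8 to 105.8, Trbp-cKO sham hearts from 67.98 to 97.9 and Trbp-cKO TAC hearts from 81.5 to 101.1. Its highest control TAC value was in heart 1, in which each of the other 8 genes was the lowest or next to lowest of the group.

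The response of control hearts to TAC was addressed by control TAC against control sham. Dsg2 was the only 1 of the 9 genes to pass an adjusted p of 0.05: it was lower after TAC by a log2 fold change of -1.11 ± 0.32 (SE, adjusted p = 0.0498, edgeR's quasi-likelihood test), from a mean of 56.7 ± 7.04 to 26.2 ± 13.6 CPM (SD). This also passed the absolute log2 fold change of 0.8 that the study used. By the first threshold 6.29% of all tested genes were called and by both thresholds 3.75%, so 1 call among 9 genes is not set apart from that background. The adjusted p of Dsg2 lay just inside the threshold and did not hold under 13 of 21 alternatives. In several of these its log2 fold change was about as large. It was -1.1 with library sizes as deposited (adjusted p = 0.0557, quasi-likelihood test), -1.13 with no filter and -1.12 in a fit of the 2 groups compared. When single control sham hearts were left out, it ran from -1.17 to -1.04. Without control TAC 1 and 2 the log2 fold change of Dsg2 was smaller, at -0.58 (adjusted p = 0.427). When a score of the cardiomyocyte markers entered the fit, the adjusted p stayed within the threshold, at 0.0214. The log2 fold change was then -0.64 and no longer passed 0.8.

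The fitted changes of 8 of the 9 genes were below 0, with a median of -0.62 against 0.02 over all tested genes, and 3 of the 9 had an unadjusted p under 0.05, as did 26.6% of all tested genes. Gja1 changed by -0.66 ± 0.27 (adjusted p = 0.143, quasi-likelihood test) and Dsc2 by -0.68 ± 0.26 (adjusted p = 0.116). For Gja1 and Dsg2 the groups did not overlap (p = 0.0286 by a two-sided exact permutation test, the lowest value possible for 4 against 4 hearts), which was true of 17.4% of all tested genes. Cdh2 and Ctnna3 had values of -0.62 ± 0.38 and -0.65 ± 0.41, Dsp -0.43 ± 0.41, Pkp2 -0.36 ± 0.28, Jup -0.09 ± 0.12 and Tjp1 0.10 ± 0.12, with adjusted p of 0.289 to 0.668.

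The values below 0 of Dsp and Pkp2 rested on control TAC 1 and 2. Without these hearts, a choice made after seeing the data, Dsp had a value of 0.22, Pkp2 0.13 and Jup 0.07. Cdh2 and Ctnna3 were at -0.01 and -0.03. Dsg2, Gja1 and Dsc2 were at -0.58, -0.33 and -0.32, against -1.11, -0.66 and -0.68 with all hearts, and none passed. With the cardiomyocyte score in the fit, the values were 0.14 for Dsp, 0.08 for Pkp2 and 0.05 for Jup. A score of circadian clock genes on the log2 scale ran from 0.85 to 1.87 in control sham and from 2.39 to 3.06 in control TAC hearts, with no overlap. With this score in the fit, Dsp, Pkp2, Jup, Cdh2 and Ctnna3 were at -0.877, -0.71, -0.148, -0.962 and -1.21. Dsg2, Gja1, Dsc2 and Tjp1 were then at -1.41, -0.447, -1.04 and 0.117, and none passed.

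The effect of the deletion without pressure overload was addressed by Trbp-cKO sham against control sham. None of the 9 genes passed, where 1.68% of all tested genes were called by the adjusted p and 0.967% by both thresholds, and none had an unadjusted p under 0.05, as 13.7% of all tested genes did. The fitted changes were below 0 for 6 genes and above 0 for 3, with a median of -0.17 against 0.01 over all tested genes. Pkp2 was the only 1 of the 9 whose groups did not overlap (109.9 ± 15.5 against 149.9 ± 6.89 CPM, exact permutation p = 0.0286, two-sided), as was true of 14.7% of all tested genes. Summed fibroblast markers (520.5 to 592 against 641.5 to 877.5 CPM) and smooth muscle and pericyte markers (799.4 to 960.4 against 1022 to 1272 CPM), all detected, also separated control sham from Trbp-cKO sham hearts, and their part was not tested. The log2 fold change of Pkp2 was -0.45 ± 0.28 (adjusted p = 0.541, quasi-likelihood test). In a fit of these 2 groups only, in which the spread was not shared with the TAC hearts, the adjusted p of Pkp2 was 0.0357 at the same log2 fold change of -0.45. It was 0.00643 by edgeR's exact test, 0.00926 without the 4 hearts with the most endothelial markers and 0.0154 with the cardiomyocyte score, and the shares of all genes called in these fits were 6.25%, 8.7%, 8.95% and 7.94%. The score of circadian clock genes ran from 0.85 to 1.87 in control sham and from 3.54 to 3.69 in Trbp-cKO sham hearts, again with no overlap. With this score in the fit Pkp2 was at -0.97 (adjusted p = 0.455, quasi-likelihood test). Dsp was at -0.44 ± 0.41, Cdh2 at -0.28 ± 0.37, Ctnna3 at -0.23 ± 0.41, Dsc2 at -0.17 ± 0.26 and Gja1 at -0.16 ± 0.27. Without Trbp-cKO sham 3 these values were -0.25, -0.10, -0.03, -0.03 and -0.06. With the clock score in the fit they were -1.09, -0.783, -1.04, -0.725 and 0.17, and none passed. Jup, Dsg2 and Tjp1 lay between 0.01 and 0.03. Jup turned to -0.0016 under DESeq2, and these 3 changed sign when single hearts were left out.

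**Figure D2:**
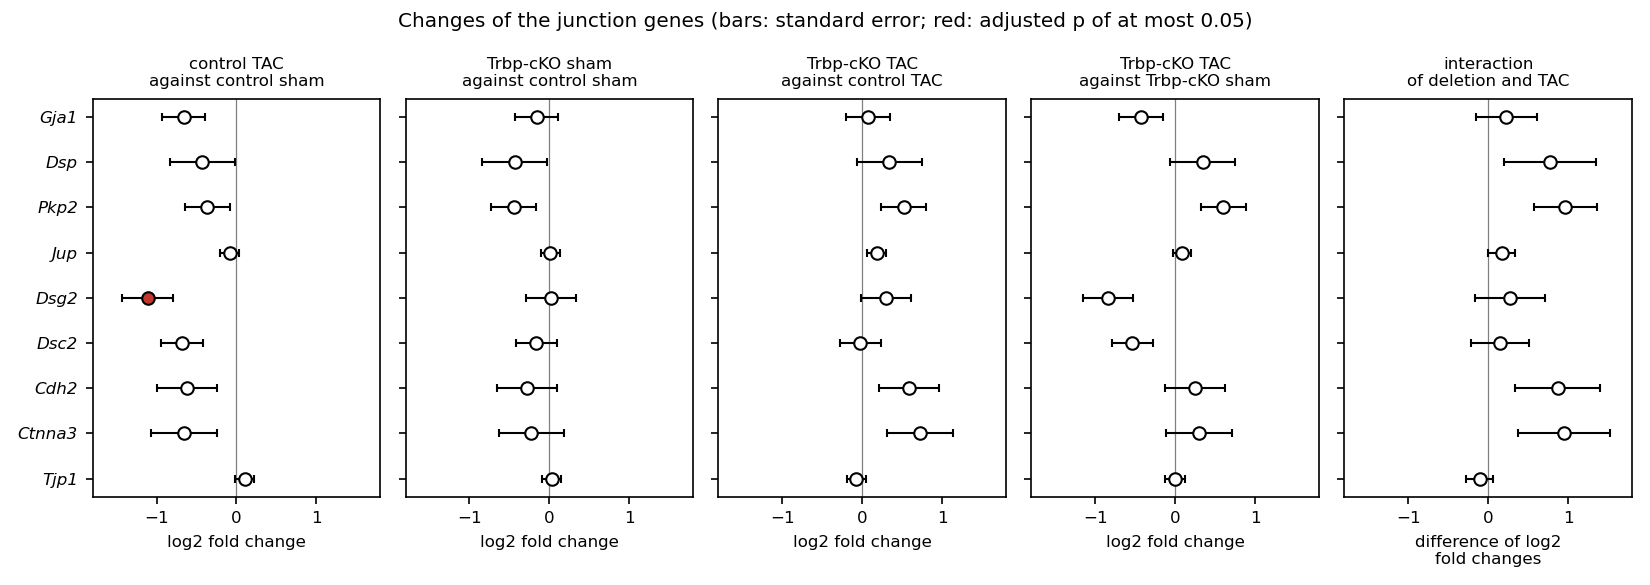
Log2 fold change of each junction gene (horizontal axis, bars are the standard error) in the 4 comparisons, and the difference of log2 fold changes for the interaction of deletion and TAC; a red point passed an adjusted p of 0.05. Dsg2 in control TAC against control sham, at -1.11, is the only red point, and the 4 largest interaction values belong to Pkp2, Ctnna3, Cdh2 and Dsp.

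The effect of the deletion under pressure overload was addressed by Trbp-cKO TAC against control TAC. None of the 9 genes passed, against 5.53% of all tested genes by the adjusted p and 2.46% by both thresholds, none had an unadjusted p under 0.05 (21.4% of all tested genes), and in none did the groups separate (10.0% of all tested genes). The fitted changes were above 0 for 7 genes, with a median of 0.30 against -0.01 over all tested genes. Ctnna3 was at 0.72 ± 0.41 (adjusted p = 0.328, quasi-likelihood test), Cdh2 at 0.59 ± 0.37, Pkp2 at 0.52 ± 0.28, Dsp at 0.34 ± 0.41 and Dsg2 at 0.30 ± 0.31. Jup was at 0.18 ± 0.12, Gja1 at 0.07 ± 0.27, Dsc2 at -0.02 ± 0.26 and Tjp1 at -0.08 ± 0.12. This direction rested on control TAC 1 and 2, the hearts with the fewest cardiomyocyte markers. Without them Dsp was at -0.32, Gja1 at -0.27, Dsg2 at -0.24, Dsc2 at -0.39 and Cdh2 at -0.04, Pkp2, Jup and Ctnna3 were between 0.02 and 0.09, and again none passed. Under scaling by the deposited library sizes, which moved the median over all genes by 0.14, Dsc2 and Tjp1 turned to 0.10 and 0.07.

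The response of Trbp-cKO hearts to TAC was addressed by Trbp-cKO TAC against Trbp-cKO sham. Again none of the 9 genes passed, against 9.94% of all tested genes by the adjusted p and 5.57% by both thresholds, and 2 genes, Dsg2 and Pkp2, had an unadjusted p under 0.05, as did 23.0% of all tested genes. Dsg2 had a log2 fold change of -0.84 ± 0.32 (adjusted p = 0.115, quasi-likelihood test), from 57.7 ± 16.4 to 32.3 ± 7.17 CPM. It was the only 1 of the 9 whose groups did not overlap (exact permutation p = 0.0286, two-sided), as was true of 17.2% of all tested genes. Pkp2 was at 0.60 ± 0.28 (adjusted p = 0.212), from 109.9 ± 15.5 to 166.9 ± 45.6 CPM. Dsc2 was at -0.54 ± 0.26 and Gja1 at -0.43 ± 0.27, while Dsp, Ctnna3 and Cdh2 were at 0.34 ± 0.41, 0.30 ± 0.41 and 0.25 ± 0.37. Without Trbp-cKO TAC 3 the value of Gja1 was -0.75, and without Trbp-cKO TAC 4 it was -0.24. Without Trbp-cKO sham 3 those of Dsp, Ctnna3 and Cdh2 were 0.16, 0.10 and 0.06. The clock score ran from 3.54 to 3.69 in Trbp-cKO sham and from 1.09 to 3.30 in Trbp-cKO TAC hearts, with no overlap. With this score in the fit, Dsp, Ctnna3, Cdh2 and Pkp2 were at 0.698, 0.724, 0.527 and 0.888. Dsg2, Dsc2 and Gja1 were then at -0.595, -0.251 and -0.628, and none passed. Jup was at 0.08 ± 0.12, and Tjp1, at -0.00 ± 0.12, had no stable sign. The median of the 9 was 0.08 against -0.00 over all tested genes. By edgeR's exact test, which placed 12.3% of all tested genes within the adjusted p, Dsg2 was called lower, at -0.84 (adjusted p = 0.00853), and no other of the 9 passed.

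The calls in this comparison changed with the hearts and covariates in the fit as well. Without the 4 hearts with the most endothelial markers (control TAC 1 and 2, Trbp-cKO sham 3 and Trbp-cKO TAC 4), Pkp2 was called higher at 0.69 (adjusted p = 5.37e-05, quasi-likelihood test) and Dsg2 lower at -0.83 (adjusted p = 0.00188). Without control TAC 1 and 2 alone, which belong to neither group compared but to the shared fit, the values were 0.60 (adjusted p = 0.0369) and -0.84 (adjusted p = 0.0119). With the cardiomyocyte score in the fit, 4 genes passed: Pkp2 at 0.64 and Dsp at 0.42 were higher, and Dsg2 at -0.77 and Dsc2 at -0.50 were lower, with adjusted p of 0.000136, 0.0383, 0.000303 and 0.0251. In these fits 18.6%, 14.7% and 22.2% of all tested genes were called, against 9.94% with all hearts and no score. These alternatives were chosen after seeing the data. Among the 4 hearts left out, Trbp-cKO sham 3 and Trbp-cKO TAC 4 were each the lowest of their group for Pkp2 and for Dsg2. Leaving them out narrowed the range of both groups by construction, and the small adjusted p of that fit carry this choice.

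**Figure D3:**
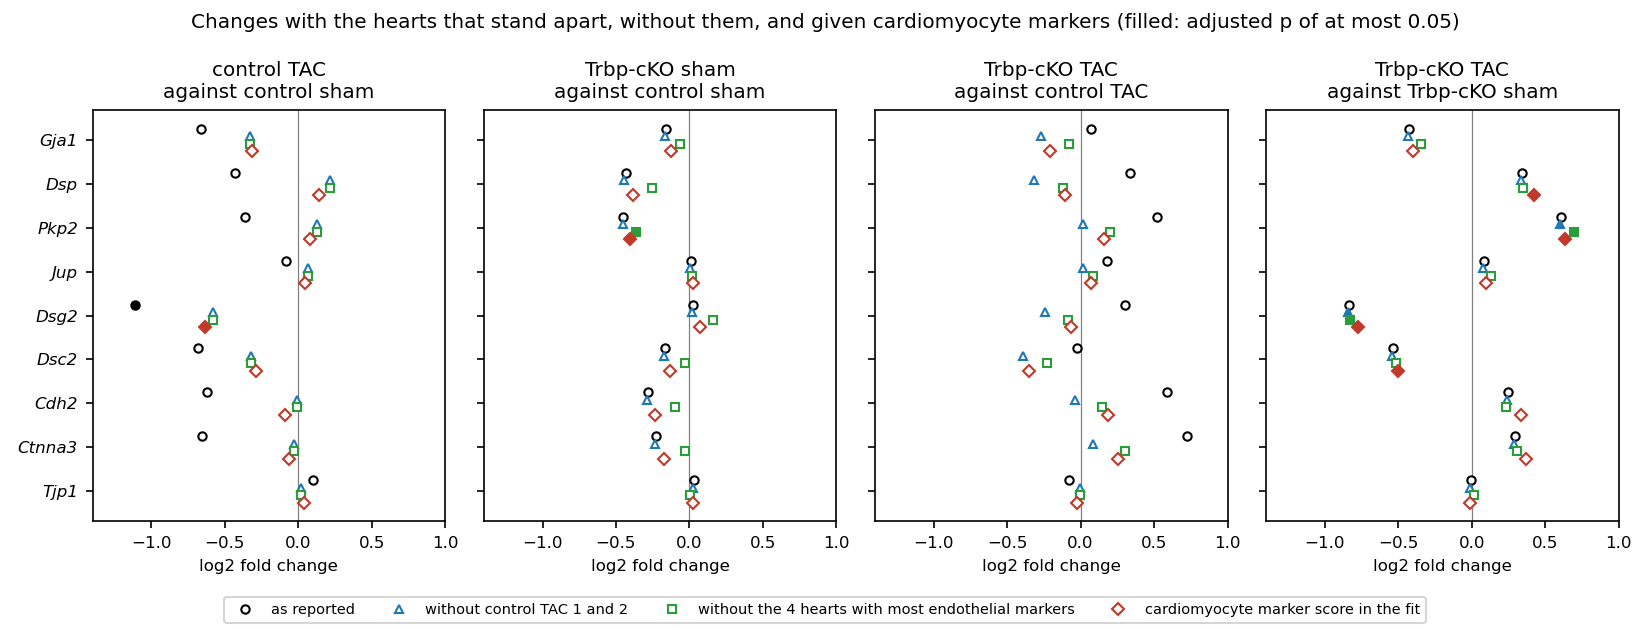
Log2 fold change of each junction gene (horizontal axis) in the 4 comparisons, as reported (circle), without control TAC 1 and 2 (triangle), without the 4 hearts with the most endothelial markers (square) and with a cardiomyocyte marker score in the fit (diamond); filled symbols passed an adjusted p of 0.05. In control TAC against control sham, Dsp moves from -0.43 to 0.22 without control TAC 1 and 2, whereas for the TAC response of Trbp-cKO hearts the value of Dsg2 stays between -0.84 and -0.77.

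The interaction asked whether TAC acted differently in Trbp-cKO and control hearts. It was above 0 for 8 of the 9 genes, with a median of 0.27 against -0.01 over all tested genes, and none passed, against 1.05% of all tested genes by the adjusted p and 0.872% by both thresholds. Pkp2, at 0.97 ± 0.40 (adjusted p = 0.256, edgeR's quasi-likelihood test), was the only 1 with an unadjusted p under 0.05, against 15.4% of all tested genes. Ctnna3 was at 0.95 ± 0.58, Cdh2 at 0.87 ± 0.53 and Dsp at 0.77 ± 0.58, and the other genes lay between -0.11 and 0.27. Without control TAC 1 and 2, Pkp2 was at 0.47 (adjusted p = 0.551), Ctnna3 at 0.32, Cdh2 at 0.25 and Dsp at 0.12, and with the clock score they were at 1.60 (adjusted p = 0.288), 1.93, 1.49 and 1.58. Pkp2 passed without the 4 hearts with the most endothelial markers, at 0.57 (adjusted p = 0.0194), and with the cardiomyocyte score, at 0.56 (adjusted p = 0.0334), where the size of the difference was smaller and 2.94% and 4.77% of all tested genes were called. Over all alternatives the adjusted p of Pkp2 ran from 0.0194 to 0.551. For Dsg2, whose TAC hearts lay below the sham hearts in each kind of mouse, the interaction was 0.27 ± 0.44 (adjusted p = 0.808).

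The junction genes varied together from heart to heart within the groups. How many of all tested genes were lowest in the hearts named here was not counted, so this is not shown to be particular to the junction genes. Control TAC 1 and 2 were the lowest hearts of their group for 8 of the 9 genes, Trbp-cKO sham 3 was the lowest for 7, control sham 1 for 7 and Trbp-cKO TAC 4 for 8. Tjp1 was the exception among TAC hearts of either kind, and Jup and Tjp1 were the exceptions in Trbp-cKO sham and Dsc2 and Tjp1 in control sham. These 5 hearts also had the lowest summed cardiomyocyte markers and the highest summed endothelial markers of their groups. Within control TAC, Dsp, Cdh2 and Ctnna3 spread most: the highest heart exceeded the lowest 3.9 times for Dsp, 3.55 times for Cdh2 and 5.25 times for Ctnna3, but 1.35 times for Jup and 1.21 times for Tjp1. In control sham hearts the same ratio was 1.33, 1.34 and 1.29 for the first 3 genes and was highest for Dsc2, at 1.63, and in Trbp-cKO TAC hearts it was highest for Gja1, at 2.79. The part of the marker levels in the spread of the junction genes was not tested beyond the fits given here.

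**Figure D4:**
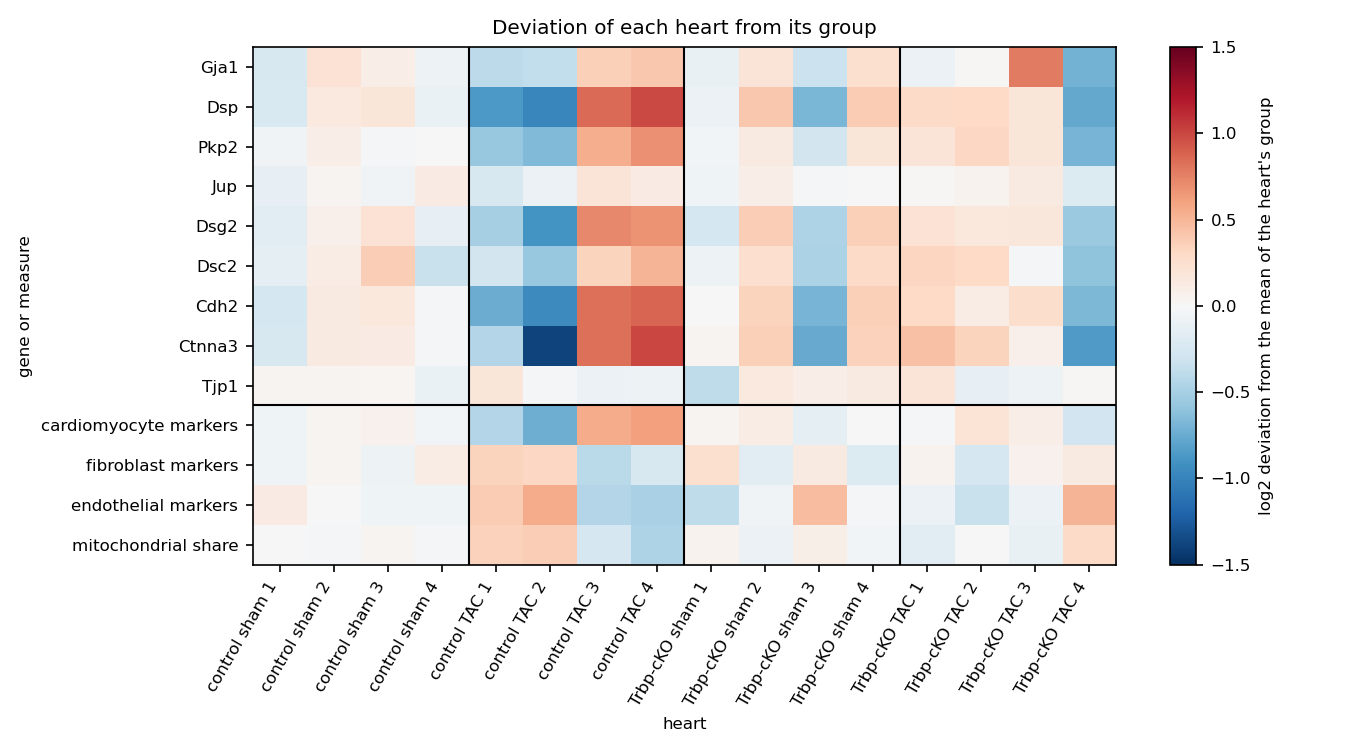
Log2 deviation of each heart (horizontal axis) from the mean of its own group for the 9 junction genes and, under the horizontal line, for the summed cardiomyocyte, fibroblast and endothelial markers and the mitochondrial share of counts (blue lower, red higher). Control TAC 1 and 2, Trbp-cKO sham 3 and Trbp-cKO TAC 4 are blue for most junction genes and for cardiomyocyte markers, and red for endothelial markers.

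Ratios between genes of the same junction, taken within each heart on the scale of CPM per kb, were examined after the values had been seen and are given as a description with no test. Per 100 of Dsp, Dsg2 had 7.10, 6.49, 6.95 and 6.71 in control sham hearts and 5.91, 4.83, 4.17 and 3.67 in control TAC hearts. Trbp-cKO sham hearts had 8.43, 9.24, 11.1 and 9.33, and Trbp-cKO TAC hearts 4.00, 3.84, 4.17 and 4.91. On this scale all 8 TAC hearts lay below all 8 sham hearts, and every Trbp-cKO sham heart lay above every control sham heart. How often other pairs of genes separate in this way was not computed, for this or the following ratios. In Trbp-cKO sham and control sham hearts the means of Dsg2 were 57.7 and 56.7 CPM. Those of Dsp were 719.9 and 973.5 CPM, so between the sham groups the means differed in Dsp and hardly in Dsg2. The mean of control hearts was 6.81 ± 0.26 after sham surgery and 4.64 ± 0.97 after TAC, and that of Trbp-cKO hearts 9.53 ± 1.12 and 4.23 ± 0.47.

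Dsc2 per 100 of Dsp ran from 7.38 to 9.49 in Trbp-cKO sham and from 3.80 to 4.93 in Trbp-cKO TAC hearts, with no overlap, while control TAC hearts, at 4.50 to 9.66, spanned the control sham range of 5.59 to 7.45. Ctnna3 per 100 of Cdh2 kept nearly the same value in the sham groups, 7.63 ± 0.14 in control and 7.89 ± 0.21 in Trbp-cKO hearts. After TAC it ranged from 5.30 to 8.85 and from 7.09 to 9.33. Pkp2 per 100 of Dsp had means of 28.1 ± 3.28 and 32.9 ± 7.87 in control hearts after sham surgery and TAC and of 29.0 ± 6.38 and 33.2 ± 1.602 in Trbp-cKO hearts, and the groups overlapped. Jup per 100 of Dsp ran from 29.3 to 98.5 over the 4 control TAC hearts.

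**Figure D5:**
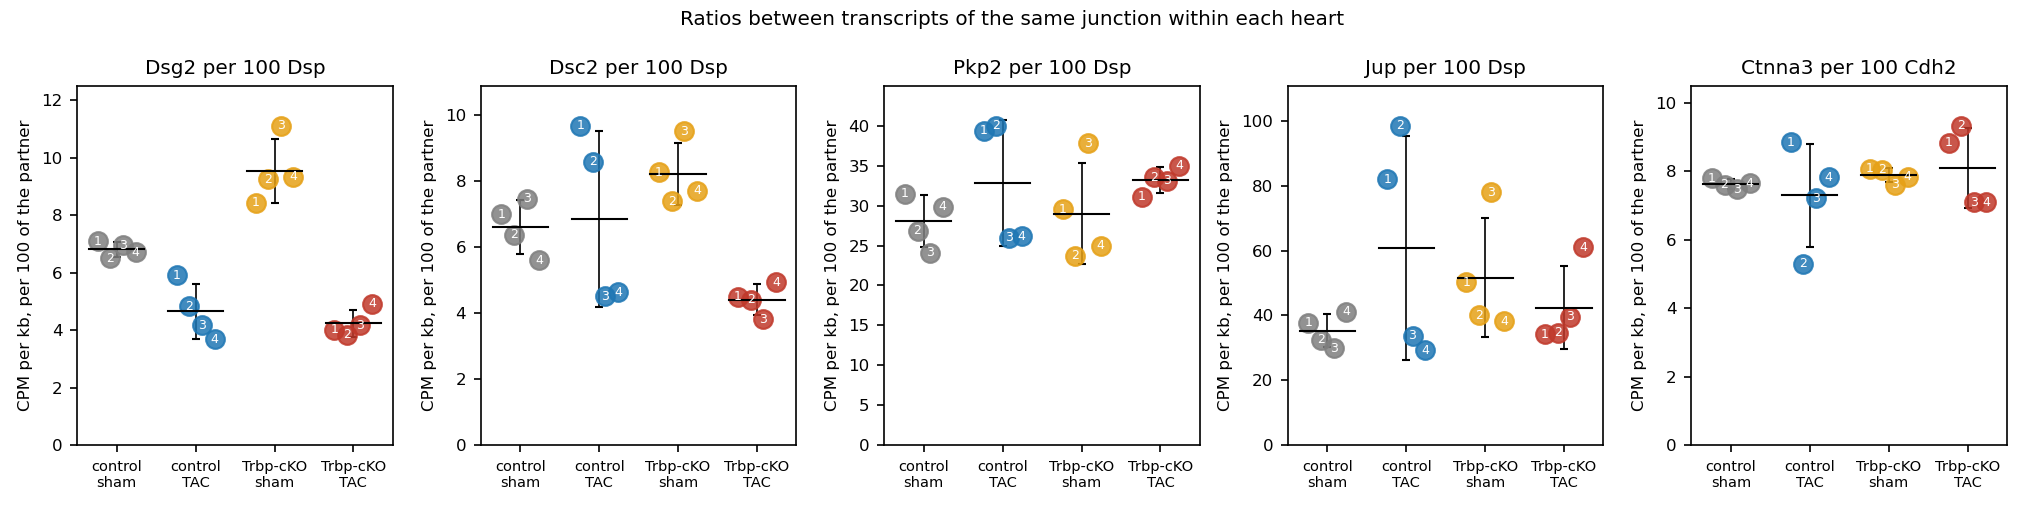
Ratio of CPM per kb within each heart (vertical axis, per 100 of the partner transcript, linear from 0) by group; digits are heart numbers, lines group means and bars the SD. Dsg2 per 100 Dsp is below 6 in all 8 TAC hearts and above 6 in all 8 sham hearts. The share of other gene pairs that separate as far was not computed.

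Among tested genes with a mean log2 CPM of at least 1, those whose log2 CPM followed each junction gene most closely over the 16 hearts were found by Pearson's r, given as a description since these points share groups and cell makeup. For Cdh2 they were Mfn2 (r = 0.990), Eif2s3x (0.989) and Alpk2 (0.984), and for Ctnna3 they were Cdh2 itself (0.975), Snapin (0.975) and Mfn2 (0.973). Dsp was followed by Cul4a (0.986), Cul1 (0.982) and Tomm70a (0.981), and Pkp2 by Prob1 (0.987), Myom1 (0.975) and E2f6 (0.974). Dsg2 was followed by Pank1 (0.978), Abhd18 (0.976) and Lpcat3 (0.975), and Dsc2 by Asb15 (0.959), Ppp6r3 (0.958) and Cnst (0.958). For Gja1 they were Ppp1r3b (0.938), Wdr92 (0.935) and Tmem135 (0.929), for Jup Eloa (0.899), Kifc3 (0.898) and Flii (0.893), and for Tjp1 Zzef1 (0.926), Prrc2c (0.885) and Fryl (0.879). Cdh2 for Ctnna3 was the only member of the 9 among these, and Myom1 was among the cardiomyocyte markers.

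Lists of 48 other intercalated disc genes, of which 44 were tested, covered other parts of the disc. The TAC response of control hearts held 2 higher and 2 lower genes, the comparison of sham hearts 2 higher in Trbp-cKO mice, that of TAC hearts 3 higher in Trbp-cKO mice, and the TAC response of Trbp-cKO hearts held 9 higher and 3 lower. Over all tested genes the shares called in these comparisons were 6.29%, 1.68%, 5.53% and 9.94%. The medians of the 44 in this order were -0.07, -0.06, 0.22 and 0.14. Of the 13 linkers of junctions to actin, 5 were higher and none lower after TAC in Trbp-cKO hearts, where 9.94% of all tested genes were called in either direction. Enah, which promotes actin assembly, rose by 1.596 ± 0.13 there (adjusted p = 5.44e-06, quasi-likelihood test), from 184.2 ± 14.9 to 556.7 ± 84.99 CPM. Enah also rose after TAC in control hearts, by 0.70 ± 0.13 (adjusted p = 0.00774), was higher in Trbp-cKO TAC than in control TAC hearts by 0.88 ± 0.13 (adjusted p = 0.00132), and had an interaction of 0.89 ± 0.18 (adjusted p = 0.0345). Without control TAC 1 and 2 its rise in control hearts was 0.64 and did not pass (adjusted p = 0.0753), while it passed at 0.64 without the 4 hearts with the most endothelial markers (adjusted p = 0.00342) and at 0.72 with the cardiomyocyte score (adjusted p = 0.00428).

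Xirp2 and Xirp1 encode Xin repeat proteins that bind actin at the disc. Xirp2 rose after TAC in control hearts by 1.48 ± 0.26 (adjusted p = 0.00572, quasi-likelihood test) and in Trbp-cKO hearts by 2.45 ± 0.27 (adjusted p = 3.79e-05). Xirp1 rose after TAC in Trbp-cKO hearts by 1.93 ± 0.32 (adjusted p = 0.00108), from 110.6 ± 19.2 to 421.5 ± 182.8 CPM (SD). In control hearts it had 227.7 ± 36.9 CPM after sham surgery and 234.3 ± 69.1 after TAC. The rise in Trbp-cKO hearts thus began from a lower mean than that of control sham hearts, although Xirp1 did not pass between the sham groups. Tln1, which encodes talin 1, rose after TAC in Trbp-cKO hearts by 0.63 ± 0.11 (adjusted p = 0.00214). Des, which encodes the desmin that desmosomes anchor, was higher in Trbp-cKO TAC than in Trbp-cKO sham hearts by 1.23 ± 0.21 (adjusted p = 0.00145) and than in control TAC hearts by 1.07 ± 0.21 (adjusted p = 0.00868). The latter difference was 0.67 without control TAC 1 and 2 (adjusted p = 0.0169) and 0.66 without the 4 hearts (adjusted p = 0.00271).

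In the other desmosome list, Ppl, which encodes the plaque protein periplakin, was higher in Trbp-cKO sham than in control sham hearts by 0.95 ± 0.21 (adjusted p = 0.0369, quasi-likelihood test) and lower in Trbp-cKO TAC than in Trbp-cKO sham hearts by -2.14 ± 0.22 (adjusted p = 2.8e-05). Its interaction was -1.69 ± 0.30 (adjusted p = 0.0182). Dsg3, a desmoglein of stratified epithelia, passed in both TAC comparisons, but on at most 22 counts in a heart, with 0 counts in all 4 Trbp-cKO TAC hearts and 3 of the 4 control TAC hearts. In control hearts it did not pass without control TAC 1 and 2, without the 4 hearts or with the cardiomyocyte score (adjusted p of 0.404, 0.205 and 0.111). Nectin2, an adhesion protein of the adherens junction, was lower after TAC in control hearts by -0.71 ± 0.15 (adjusted p = 0.0162) and in Trbp-cKO hearts by -0.73 ± 0.15 (adjusted p = 0.00598). Without control TAC 1 and 2 it was at -0.40 in control hearts (adjusted p = 0.0862), while it passed at -0.40 without the 4 hearts (adjusted p = 0.0113) and at -0.50 with the cardiomyocyte score (adjusted p = 0.014). None of the 3 tested other connexins and none of the 5 junction scaffolds passed in any comparison.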

How the data were processed

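Polyadenylated RNA of mouse ventricle was sequenced in paired reads, with 1 library per heart and 4 hearts in each of the groups given by the labels. The authors removed adapters with cutadapt 2.3, used HISAT2 2.1.0 for alignment to GRCm38 and quantified genes with StringTie 1.3.4. They deposited whole-number counts per gene and heart, with no normalization for depth. The annotation release, the read length assumed in deriving counts and the use of strand are not given in the sources used here, so the counts may exceed sequenced fragments by a common factor and were also tested halved. Symbols and positions came from GENCODE M21 on GRCm38, which placed 55480 of the 55573 genes.

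Counts were analysed with edgeR 4.0.16 in R 4.3.3: TMM scaling, edgeR's filter by group, and 1 robust quasi-likelihood fit over the 16 hearts, in which every group had its own coefficient. The Benjamini-Hochberg adjustment ran over the 19955 genes tested. The study's own thresholds were an adjusted p of 0.05 and an absolute log2 fold change of 0.8, and its methods name Fisher's exact test. The exact test of edgeR is among the alternatives. For single genes a two-sided exact permutation test of CPM was added, over 70 assignments. Overlap of groups was judged on CPM. All 9 members are named in every comparison, and of the other disc lists at most the 6 genes with the smallest adjusted p in each comparison among those past it, with their values also in comparisons where another gene ranked higher; 1 gene that the rule names is not reported here. The members and lists were chosen with earlier results of these data known. Total counts ran from 45166994 to 68274222 per heart, so the spread between hearts set the precision. The fit was tested on simulated data before use. Alternatives covered scaling, filters, test, covariates and hearts left out.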

Additional observations from a re-analysis of the deposited data

Results flagged for a closer look

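Within the 36 groups of 4 hearts, 9 genes in 4 groups, a heart far from the other 3 relative to the range of its group was found 5 times, where chance gives about 1 in 20 groups. Of these, 3 were Trbp-cKO TAC 4, which had 512.7 CPM of Dsp against 997.0 or more in the other hearts of its group, 99.6 CPM of Pkp2 against 183.2 or more, and 21.6 CPM of Dsg2 against 35.3 or more. This heart had the lowest cardiomyocyte marker sum of its group, 22650 CPM, and the highest endothelial marker sum, 1312 CPM. The other cases were Tjp1 in control sham 4, at 81.3 CPM against 88.9 or more, and Tjp1 in Trbp-cKO sham 1, at 67.98 CPM against 94.2 or more.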

How the results depend on the processing

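The call of Dsg2 in control TAC against control sham rested on the settings: its count of 1 junction gene became 0 with the library sizes as deposited, with no filter, in a fit of the 2 groups compared, with a score of clock genes (the arm with Per and Dbp minus the arm with Arntl), without control TAC 1 and 2 and without the 4 hearts with the most endothelial markers, and ran from 0 to 2 when single hearts were left out. It became 0 without any 1 of the 4 control sham hearts, without control TAC 1 or without control TAC 2, and 2, with Dsc2 added, without control TAC 4. The shares of all genes called in these fits were 2.25% to 2.96%, 1.87%, 2.09% and 14.1%. Over all alternatives the adjusted p of Dsg2 ran from 0.00967 to 0.427, and its log2 fold change from -1.41 to -0.582, against -1.11 as reported. With the library sizes as deposited, with no filter and in the fit of 2 groups it was about as large, at -1.1, -1.13 and -1.12. With the score of clock genes it was -1.41. In Trbp-cKO sham against control sham the count rose from 0 to 1, Pkp2, in the fit of 2 groups, by the exact test, without the 4 hearts and with the cardiomyocyte score. For the TAC response of Trbp-cKO hearts it rose from 0 to 1, Dsg2, by the exact test, to 2 without control TAC 1 and 2 and without the 4 hearts, and to 4 with the cardiomyocyte score. For the interaction it rose from 0 to 1, Pkp2, without the 4 hearts and with the cardiomyocyte score. In Trbp-cKO TAC against control TAC it was 0 under every alternative. The cause of these shifts was not tested. With the replicate block, the count in control TAC against control sham was 0 and Dsg2 was at -1.16 (adjusted p = 0.0895, quasi-likelihood test of edgeR), and no other call of a member changed. Deviations from the group correlated at -0.633 to 0.482 over 24 pairs of same-numbered hearts. In 7 pairs the correlation was above 0.1, and in 3 the heart of the same number was the best match. The labels give a replicate number and no link between hearts of the same number, and whether such a link exists was not tested further.

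Signs of values that passed no test also changed. In control TAC against control sham, Dsp, Pkp2 and Jup were at 0.216, 0.125 and 0.0652 without control TAC 1 and 2, at 0.216, 0.126 and 0.0656 without the 4 hearts, and at 0.139, 0.0771 and 0.0472 with the cardiomyocyte score. In Trbp-cKO sham against control sham, Jup was at -0.0016 under DESeq2, and with the clock score Gja1, Jup and Dsg2 were at 0.17, -0.0906 and -0.416. In Trbp-cKO TAC against control TAC, Dsc2 and Tjp1 were at 0.0986 and 0.065 with library sizes as deposited, which moved the median of all genes by 0.14, and Gja1 and Dsc2 at -0.0115 and 0.0676 with the clock score. There Gja1, Dsp, Dsg2 and Cdh2 were at -0.27, -0.319, -0.241 and -0.0358 without control TAC 1 and 2; Gja1, Dsp and Dsg2 were at -0.0765, -0.121 and -0.0879 without the 4 hearts and at -0.211, -0.103 and -0.0658 with the cardiomyocyte score. For the TAC response of Trbp-cKO hearts, Tjp1 was at 0.0342 with library sizes as deposited, which moved that median by 0.041 there, and 0.0133 without the 4 hearts. For the interaction, Gja1 was at -0.181 with the clock score, and Gja1, Dsg2 and Dsc2 were at -0.106, -0.261 and -0.221 without control TAC 1 and 2, at -0.0141, -0.248 and -0.195 without the 4 hearts and at -0.0848, -0.136 and -0.216 with the cardiomyocyte score. Leaving out single hearts gave, in Trbp-cKO sham against control sham, -0.0411 to 0.0454 for Jup, -0.0993 to 0.162 for Dsg2 and -0.0182 to 0.131 for Tjp1. It gave -0.251 to 0.264 for Gja1 and -0.192 to 0.161 for Dsc2 in Trbp-cKO TAC against control TAC, -0.117 to 0.0435 for Tjp1 in the TAC response of Trbp-cKO hearts, and for the interaction -0.0931 to 0.422 for Gja1 and -0.0198 to 0.328 for Dsc2. The share of all genes called in control TAC against control sham was 6.29% as reported, 12.5% under DESeq2, 2.2% in the fit of 2 groups and 0.716% without control TAC 1 and 2. Other disc genes past the adjusted p went from 4 to 8 in that comparison and from 12 to 19 in the TAC response of Trbp-cKO hearts without the 4 hearts, where the shares of all genes called went from 6.29% to 3.72% and from 9.94% to 18.6%. The last 3 alternatives, the 2 sets of hearts left out and the cardiomyocyte score, were chosen after seeing the data.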
